A study of Rattus norvegicus with 65 samples.

Results

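The 34 genes described here encode enzymes that break down glucose and burn the product: glycolysis, lactate dehydrogenase, the pyruvate dehydrogenase complex and the citric acid cycle. They were chosen by symbol from a written list of pathway enzymes. All 34 were found among the 38513 genes of the count table, 33 by symbol and Idh3b by its gene identifier, because the table spells that symbol Idh3B. All 34 were also among the 21871 genes with enough counts to be tested.

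RNA of the hypothalamus was sequenced from 65 male Wistar rats, 1 library per animal, to ask how operations, food restriction and gut hormones that lower body weight act on this brain region. Rats made obese on a high-fat diet underwent Roux-en-Y gastric bypass (RYGB, n = 14) or a sham operation (n = 11), or had their food restricted to bring their weight toward that of RYGB animals (BWM, n = 7). The abstract of the paper gives the BWM group as sham-operated too. Others were given the gut hormone PYY3-36 by osmotic minipump (n = 4), the GLP-1 receptor agonist liraglutide by injection (n = 5), both (PYY3-36 + liraglutide, n = 10) or saline only (n = 8). A further 6 animals were labelled lean. The study's paper names a group given low-fat diet only, and the labels do not say whether the lean animals are that group. All treated obese groups other than BWM chose freely between a high-fat and a low-fat diet after the intervention, and tissue was taken weeks later from fasted animals. The experiments ran in 2 periods called batch A (37 animals) and batch B (28 animals). Batch A held 5 sham, 7 BWM, 11 RYGB, 6 lean, 3 saline and 5 PYY3-36 + liraglutide animals. Batch B held 6 sham, 3 RYGB, 5 saline, 4 PYY3-36, 5 liraglutide and 5 PYY3-36 + liraglutide animals.

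Glycolysis splits glucose into pyruvate in the cytosol, and lactate dehydrogenase interconverts pyruvate and lactate. The pyruvate dehydrogenase complex turns pyruvate into acetyl-CoA in mitochondria, where the citric acid cycle oxidises it and passes electrons to the respiratory chain. The brain relies heavily on glucose as fuel, and glucose sensing in the hypothalamus takes part in the control of feeding.

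Between 20040821 and 36539714 counts fell on genes in each library, with a median of 27379758. The 34 enzymes took 1.44% ± 0.15 of all counts (SD, n = 65), from 1.12% to 1.69%. That share was 1.37% ± 0.137 in batch A (n = 37) and 1.53% ± 0.11 in batch B (n = 28). Within batch A the mean share was 1.5% in 5 sham animals. In the same batch it was 1.35% in 11 RYGB, 1.31% in 7 BWM, 1.38% in 6 lean, 1.36% in 3 saline and 1.35% in 5 PYY3-36 + liraglutide animals. Within batch B it was 1.5% in 6 sham, 1.56% in 3 RYGB and 1.58% in 5 saline animals, and it was 1.42% for PYY3-36 (n = 4), 1.56% for liraglutide (n = 5) and 1.57% for the combination (n = 5). Sham animals thus had the largest mean share of the groups in batch A and a smaller one than the RYGB animals in batch B, and these shares were not tested.

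Of 10 neuropeptide genes that mark the hypothalamus, 10 of 10 were present and tested, and none was at 0 in all libraries. Hcrt alone was at 0 in some, namely 2 of 65. Levels are given as CPM, counts scaled to library size, and the summed level of the hypothalamus markers ran from 123 CPM in PYY3-36 replicate 2 to 8320 CPM, with Pmch the most abundant. Sham replicates 1, 2, 6 and 10 held 569, 260, 467 and 337 CPM of them. The lowest RYGB library, replicate 6, held 897 CPM. BWM replicate 1, lean replicates 2 and 5, saline replicates 3 and 4, liraglutide replicates 3 and 4 and PYY3-36 + liraglutide replicate 8 held 216 to 355 CPM. The part of these differences in the enzyme values was not tested. Some libraries stood apart by markers of neighbouring tissue. BWM replicate 5 held 76634 CPM of 6 pituitary markers, against a median of 5.79 CPM over all libraries, and Gh1 led that list. RYGB replicate 6 held 3596 CPM of 5 choroid plexus markers, led by Ttr, and 7105 CPM of 7 neuron markers, led by Snap25. BWM replicate 2 held 2092 CPM of the choroid plexus markers, against a median of 46.3 CPM. Sham replicate 1 held 755 CPM of 4 habenula and thalamus markers, led by Prkcd, against a median of 65.4 CPM. PYY3-36 replicate 2 held 57382 CPM of 6 oligodendrocyte markers, led by Mbp, against a median of 18981 CPM. BWM replicate 7 held 1123 CPM of the pituitary markers and 1099 CPM of 5 meninges markers, and RYGB replicate 3 held 1123 CPM of the latter, against a median of 115 CPM. Saline replicate 7, a control in every hormone comparison, held 588 CPM of the habenula and thalamus markers. These libraries were kept in all fits. Because the samples were bulk tissue, fewer cells of a type and less RNA per cell cannot be told apart.

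Levels between genes were compared per length, as CPM per kb of exon. The most abundant enzymes on that scale were Aldoc with 893 ± 163 CPM per kb (SD, n = 65), Gapdh with 864 ± 162 and Aldoa with 742 ± 129. Ldhb followed with 548 ± 118 CPM per kb and Mdh1 with 506 ± 112. The first 3 differed from their neighbour by less than their SD between libraries. A median of 15.9% of the counts of Gapdh and its annotated near-identical copies lay on the copies and is left out here. With them Gapdh would stand higher, so its order against Aldoc depends on that choice. At the low end stood Hk2 with 2.04 ± 0.37 CPM per kb and Dlat with 13.8 ± 3.06, then Ogdh with 29.6 ± 4.95 and Dlst with 31.4 ± 3.96. No enzyme had a count of 0 in any library, and the lowest was Hk2 with 170 to 628 counts. The plot of levels by gene shows each library.

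**Figure D1:**
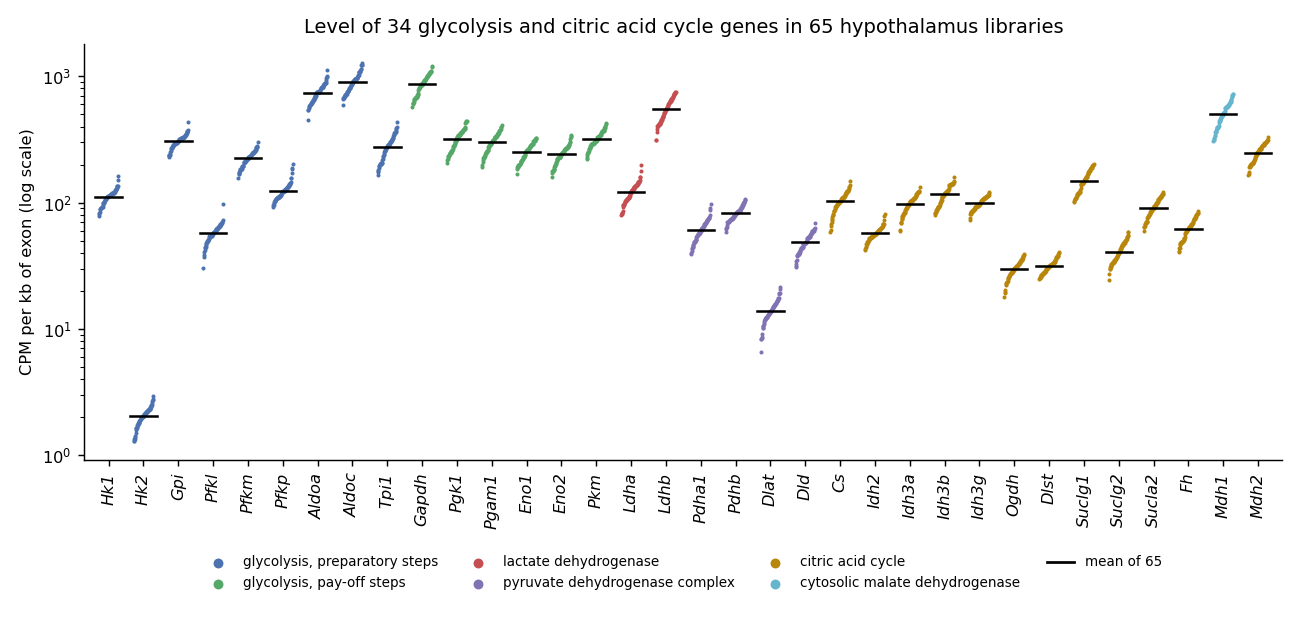
Level of each of the 34 enzyme genes in 65 hypothalamus libraries as CPM per kb of exon on a log axis, coloured by role, with 1 point per library and a bar at the mean. Aldoc (893 CPM per kb) and Gapdh (864) stand at the top and Hk2 (2.04) at the bottom. Counts on annotated near-identical copies are left out.

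Where isozymes catalyse the same step, the share of each in the family, per kb, was taken library by library. Hk1 made up 98.2% ± 0.431 of the hexokinase pair (SD, n = 65) and Hk2 1.84%. Among phosphofructokinases, Pfkm held 55.1% ± 3.41, Pfkp 30.7% ± 2.99 and Pfkl 14.2% ± 2.48. These are the muscle, platelet and liver forms by name, and all were measured in every library. Aldoc, a form known from astrocytes, held 54.6% ± 4.29 of the aldolase pair and Aldoa the other 45.4%. Eno1 held 51.1% ± 3.99 and Eno2, the neuronal enolase, 48.9%. On these counts neither exceeded the other by more than the spread. A median of 16.0% of the counts of Eno1 and its annotated near-identical copy lay on the copy and is left out here. With the copy the share of Eno1 would be larger, so the near-equal shares depend on that choice. Ldhb held 81.5% ± 3.28 of lactate dehydrogenase and Ldha 18.5%. Sucla2, the ADP-forming succinate-CoA ligase subunit, held 68.9% ± 4.69 and the GDP-forming Suclg2 31.1%. Cytosolic Mdh1 held 66.8% ± 1.85 of the malate dehydrogenase pair and mitochondrial Mdh2 33.2%.

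Group means in CPM ± SD are written in a fixed order of groups: sham, BWM, RYGB, lean, saline, PYY3-36, liraglutide and PYY3-36 + liraglutide, with 11, 7, 14, 6, 8, 4, 5 and 10 animals. They are not adjusted for batch, which differs between the groups. Glycolysis opens with hexokinase, which traps glucose as glucose 6-phosphate, and Hk1 is the main form in brain. For Hk1 the means were 350 ± 75.7, 311 ± 48.3, 378 ± 51.3, 349 ± 43.2, 371 ± 59.3, 360 ± 17.6, 383 ± 21.7 and 383 ± 34 CPM. For Hk2, the form regulated by insulin in muscle and fat, they were 10.8 ± 2.34, 13.8 ± 3.06, 13.4 ± 1.67, 12.7 ± 1.93, 13.1 ± 2.36, 13.4 ± 0.935, 12.8 ± 3.31 and 13.7 ± 1.88 CPM. Sham had the lowest Hk2 mean of the 8 groups. Gpi turns glucose 6-phosphate into fructose 6-phosphate and had means of 657 ± 90.2, 554 ± 90.5, 600 ± 70.5, 606 ± 83.3, 635 ± 54.1, 574 ± 70.1, 641 ± 24.9 and 643 ± 68.7 CPM. Phosphofructokinase then makes the committing step of glycolysis. Pfkl had 165 ± 53.5, 160 ± 24.8, 177 ± 28.8, 153 ± 13.9, 164 ± 27.0, 168 ± 13.8, 165 ± 23.2 and 175 ± 18.2 CPM. Pfkm had 610 ± 69.3, 536 ± 108, 584 ± 90.5, 586 ± 70.6, 643 ± 56.4, 603 ± 76.7, 704 ± 75.9 and 645 ± 90.2 CPM. Pfkp had 317 ± 53.9, 308 ± 48.7, 337 ± 66.4, 360 ± 85.6, 341 ± 86.2, 318 ± 17.3, 344 ± 35.3 and 348 ± 17.1 CPM. BWM had the lowest Pfkm and Pfkp means. Aldolase splits the sugar into 3-carbon pieces. Aldoa means were 1817 ± 257, 1448 ± 211, 1520 ± 304, 1514 ± 394, 1723 ± 279, 1528 ± 132, 1701 ± 138 and 1578 ± 227 CPM. Aldoc means were 1485 ± 257, 1287 ± 141, 1419 ± 304, 1151 ± 52.2, 1435 ± 200, 1404 ± 264, 1734 ± 257 and 1384 ± 203 CPM. Tpi1, which interconverts the triose phosphates, had 445 ± 44.6, 316 ± 50.9, 356 ± 80.4, 344 ± 76.3, 440 ± 101, 408 ± 29.0, 503 ± 87.3 and 413 ± 108 CPM.

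The later steps of glycolysis yield NADH and ATP, in the same order of groups. Gapdh, which makes the NADH, had means of 1591 ± 175, 1190 ± 178, 1286 ± 262, 1256 ± 257, 1515 ± 294, 1416 ± 120, 1583 ± 173 and 1393 ± 267 CPM. Pgk1, the first ATP-yielding enzyme, had 585 ± 70.0, 438 ± 56.7, 488 ± 98.3, 459 ± 92.9, 581 ± 119, 557 ± 44.3, 612 ± 66.5 and 525 ± 112 CPM. Both means were lowest in BWM. Pgam1 shifts the phosphate of phosphoglycerate and had 568 ± 90, 475 ± 71.1, 511 ± 102, 506 ± 119, 581 ± 103, 533 ± 42.9, 611 ± 52.6 and 553 ± 108 CPM. Enolase makes phosphoenolpyruvate. Eno1 had 556 ± 71.2, 450 ± 56.2, 463 ± 84.2, 444 ± 92.1, 529 ± 80.7, 538 ± 68.7, 557 ± 43.5 and 480 ± 74.6 CPM. Eno2 had 666 ± 59.6, 542 ± 158, 568 ± 100, 623 ± 143, 627 ± 85.1, 541 ± 61.6, 622 ± 77.8 and 637 ± 98.0 CPM. Pkm, pyruvate kinase, closes the pathway and had 883 ± 138, 776 ± 144, 862 ± 141, 859 ± 180, 914 ± 93.2, 860 ± 80.9, 947 ± 81.4 and 930 ± 133 CPM. Lactate dehydrogenase follows. Ldha, rich in tissues that make lactate, had 241 ± 58.2, 187 ± 24.7, 212 ± 33.1, 199 ± 50.8, 239 ± 41.9, 247 ± 12.1, 250 ± 22.6 and 231 ± 38.2 CPM. Ldhb, rich in oxidative tissues, had 904 ± 121, 716 ± 211, 680 ± 153, 763 ± 155, 839 ± 187, 723 ± 72.4, 849 ± 152 and 761 ± 151 CPM. Its mean was highest in sham and lowest in RYGB.

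Pyruvate dehydrogenase joins glycolysis to the citric acid cycle, and its subunits were read in the same order of groups. Pdha1, the E1 alpha subunit that kinases switch off, had means of 175 ± 21.3, 144 ± 20.4, 159 ± 40.6, 167 ± 42.9, 186 ± 45.9, 195 ± 26.3, 189 ± 17.6 and 177 ± 32.5 CPM. Pdhb, the E1 beta subunit, had 166 ± 20.8, 142 ± 13.3, 144 ± 17.7, 147 ± 26.7, 160 ± 22.9, 150 ± 17.8, 161 ± 19.6 and 157 ± 23.8 CPM. Dlat is the E2 core of the complex. Its means were 31.9 ± 6.75, 30.9 ± 11.4, 35.3 ± 6, 37.5 ± 11.3, 36.9 ± 6.93, 38.7 ± 3.73, 37.8 ± 2.66 and 41.4 ± 8.05 CPM. Dld, the E3 subunit shared with the oxoglutarate dehydrogenase complex, had 141 ± 19.0, 113 ± 9.57, 126 ± 24.6, 127 ± 28.7, 142 ± 27.5, 137 ± 16.2, 150 ± 15.1 and 142 ± 26.6 CPM. BWM had the lowest mean of all 4 subunits.

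In the citric acid cycle, Cs makes citrate and had means of 130 ± 25.5, 141 ± 46.1, 157 ± 26.6, 160 ± 32.8, 158 ± 20.4, 156 ± 9.78, 161 ± 15.0 and 167 ± 24.4 CPM. Sham was the lowest of the 8 groups for Cs. Idh2, the mitochondrial NADP-linked isocitrate dehydrogenase, had 94.6 ± 10.9, 99.6 ± 13.2, 101 ± 12.1, 84.5 ± 12.2, 93.9 ± 11.2, 104 ± 23.6, 98.9 ± 6.68 and 86.9 ± 7.88 CPM. The NAD-linked enzyme has 3 subunits. Idh3a had 253 ± 30, 199 ± 39.0, 221 ± 42.3, 222 ± 37.4, 249 ± 42.3, 244 ± 13.2, 260 ± 28.8 and 253 ± 45.2 CPM. Idh3b had 201 ± 18.2, 163 ± 36.9, 164 ± 27.4, 173 ± 35.1, 189 ± 32.7, 174 ± 19.8, 203 ± 31.4 and 186 ± 37.1 CPM. Idh3g had 198 ± 13.9, 179 ± 28.8, 175 ± 18.8, 183 ± 23.4, 190 ± 20.2, 175 ± 5.20, 194 ± 25.9 and 183 ± 24.0 CPM. Oxoglutarate dehydrogenase is a regulated step of the cycle. Its E1 subunit Ogdh had 141 ± 17.2, 150 ± 38.4, 169 ± 29.0, 160 ± 27.5, 158 ± 15.9, 182 ± 14.2, 182 ± 12.6 and 177 ± 25.4 CPM. Its E2 subunit Dlst had 146 ± 11.2, 134 ± 18.7, 130 ± 17.6, 142 ± 22.5, 146 ± 21.1, 129 ± 6.66, 146 ± 13.2 and 141 ± 17.9 CPM. Ogdh was lowest in sham.

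Succinate-CoA ligase yields ATP or GTP in the cycle, and its alpha subunit Suclg1 had 223 ± 33.3, 172 ± 41.0, 173 ± 34, 173 ± 36.5, 197 ± 35.8, 180 ± 19.1, 207 ± 28.7 and 182 ± 36.7 CPM. The beta subunit Suclg2 had 93.7 ± 23.2, 84.8 ± 11.4, 88.0 ± 18.5, 73.5 ± 11.9, 92.4 ± 12.5, 111 ± 5.66, 112 ± 7.94 and 87.2 ± 13.9 CPM. The beta subunit Sucla2 had 204 ± 28.4, 161 ± 21.2, 180 ± 30.3, 176 ± 37.4, 202 ± 35.2, 199 ± 23.4, 215 ± 26.1 and 199 ± 41.5 CPM. Fumarate hydratase and malate dehydrogenase complete the cycle. Fh had 114 ± 13.1, 88.0 ± 15.6, 89.8 ± 17.3, 87.1 ± 16.6, 106.2 ± 22.6, 91.6 ± 15.5, 111 ± 14.3 and 96.6 ± 18.8 CPM. Mdh1 works in the cytosol and had 1099 ± 121, 825 ± 188, 842 ± 208, 918 ± 266, 1034 ± 242, 885 ± 103, 1045 ± 167 and 955 ± 202 CPM. Mdh2 works in the mitochondrion and had 368 ± 39.4, 286 ± 40.7, 293 ± 53.9, 296 ± 51.2, 342 ± 49.7, 309 ± 32.1, 349 ± 48.7 and 323 ± 54.6 CPM. Suclg1, Fh, Mdh1 and Mdh2 all had their highest mean in sham.

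Counts of 10 members (Aldoa, Tpi1, Gapdh, Pgk1, Pgam1, Eno1, Eno2, Pkm, Ldha and Dlat) held fractions in over 90% of libraries, so their levels are less certain. The authors counted reads with several alignments, and reads that overlap several features, as fractions, and which of these gave the fractions was not tested. A median of 15.9% of the counts of Gapdh and its annotated near-identical copies lay on the copies. The same share was 14.7% for Tpi1, 16.0% for Eno1, 3.01% for Aldoa and 29.97% for Pdha1. Summing the copies into their gene gave Gapdh a log2 fold change of -0.22 for RYGB against sham, as it was without them.

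Promoters are shown for Mdh2 and Hk2, the enzymes that passed the test for RYGB against sham, and for Ogdh, the one of the 6 with the smallest p there that holds both of the shorter motifs searched. RefSeq sequences of GRCr8, 300 bases around the gene start, were found for 32 members as 36 windows, and Idh3a and Pgk1 had none. They were searched on both strands for ACGTG (the core of the hypoxia response element), for CACGTG (an E-box, which contains ACGTG) and for the NRF1 motif. ACGTG was in 41.7% of 36 member windows and in 19.3% of 33469 promoters, CACGTG in 8.33% and 6.42%, and the NRF1 motif in 2.78% and 0.852%. Windows of 1 gene overlap in part, and a match is a description only. The 3 windows are chr12:26543792-26544091 (minus strand) for Mdh2, chr4:116841226-116841525 (minus strand) for Hk2 and chr14:85363781-85364080 (plus strand) for Ogdh, all in GRCr8. Capitals mark a match, CACGTG in Ogdh, and the windows of Mdh2 and Hk2 held none of the 3 motifs.
Mdh2: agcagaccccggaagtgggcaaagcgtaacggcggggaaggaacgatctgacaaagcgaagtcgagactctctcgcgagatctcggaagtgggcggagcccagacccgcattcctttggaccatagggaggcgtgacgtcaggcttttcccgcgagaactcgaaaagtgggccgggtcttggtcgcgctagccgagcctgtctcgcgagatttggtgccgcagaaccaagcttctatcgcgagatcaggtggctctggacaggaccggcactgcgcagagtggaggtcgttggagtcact
Hk2: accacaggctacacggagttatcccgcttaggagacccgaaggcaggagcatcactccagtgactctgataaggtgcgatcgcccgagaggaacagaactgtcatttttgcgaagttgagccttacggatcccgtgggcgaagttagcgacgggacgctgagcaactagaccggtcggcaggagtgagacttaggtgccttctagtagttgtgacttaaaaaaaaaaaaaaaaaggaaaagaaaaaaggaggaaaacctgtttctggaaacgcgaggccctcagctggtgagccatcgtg
Ogdh: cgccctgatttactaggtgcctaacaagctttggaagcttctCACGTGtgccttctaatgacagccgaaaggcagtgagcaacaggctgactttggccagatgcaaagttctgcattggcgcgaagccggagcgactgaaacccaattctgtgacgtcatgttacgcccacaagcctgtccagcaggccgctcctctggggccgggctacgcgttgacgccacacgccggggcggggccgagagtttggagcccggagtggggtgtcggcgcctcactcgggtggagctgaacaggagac

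The first comparison asked what RYGB does against a sham operation. Most enzymes had slightly lower values after RYGB, while Hk2, Ogdh and Cs had higher ones. Of 34 enzymes, 22 had a log2 fold change under 0 and 12 one above 0, where all tested genes had 47.9% above 0. The median over the enzymes was -0.09, against -0.02 over all 21871 genes. Only 1 enzyme rose and 1 fell past the test, an adjusted p under 0.05 in edgeR.

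Mitochondrial malate dehydrogenase Mdh2 (chr12:23941451-23954406 of Rnor_6.0, minus strand) makes oxaloacetate. In 11 sham animals Mdh2 ran from 280 to 424 CPM with a median of 378. In 14 RYGB animals it ran from 219 to 384 CPM with a median of 272. The groups overlapped, with 8 RYGB animals below every sham animal. Within batch A, 9 of 11 RYGB animals were below the median of the 5 sham animals, and within batch B 3 of 3 were below that of 6. BWM animals ran from 246 to 352 CPM, lean from 215 to 345, saline from 264 to 386 and PYY3-36 + liraglutide from 252 to 391. In the 4 PYY3-36 animals Mdh2 was at 269, 297, 326 and 341 CPM, and in the 5 liraglutide animals at 289, 316, 343, 393 and 402 CPM. Mdh2 fell by 0.25 on the log2 scale after RYGB (SE 0.0829, 95% interval -0.42 to -0.08, adjusted p 0.037).

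Hexokinase 2, Hk2 (chr4:113559396-113609897 of Rnor_6.0, minus strand), ran from 8.22 to 15.9 CPM in sham animals with a median of 10.4. In RYGB animals it ran from 10.3 to 16.2 CPM with a median of 13.6. The ranges overlapped widely, with 1 RYGB animal above every sham animal. Within batch A 11 of 11 RYGB animals were above the sham median of that batch, and within batch B 3 of 3. BWM animals ran from 8.75 to 18.5 CPM, lean from 10.5 to 14.8, saline from 9.05 to 17.5 and PYY3-36 + liraglutide from 11.3 to 16.8. In the 4 PYY3-36 animals Hk2 was at 12.6, 12.9, 13.4 and 14.7 CPM, and in the 5 liraglutide animals at 8.18, 11.4, 13.6, 13.6 and 17.2 CPM. Hk2 rose by 0.32 on the log2 scale after RYGB (SE 0.11, 95% interval 0.11 to 0.54, adjusted p 0.0405).

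With 1 of 34 members higher, 2.94% of the list stood against a background of 6.52% of all genes called higher. With 1 lower, the same share stood against 6.53% called lower, so neither count is above the background. That split depends on scaling. With library totals alone 9.22% of all genes were called higher and 3.81% lower, with 3 enzymes higher (Hk2, Ogdh and Cs) and 0 lower, and Mdh2 had an adjusted p of 0.0538. At an unadjusted p under 0.05, 3 enzymes were higher and 10 lower, where 13.9% of all genes were higher and 16.2% lower. Adding the study's fold threshold, an absolute log2 fold change over 1, left 0 of 34 enzymes in edgeR, against 2.37% of all genes. DESeq2 called 4 of 34 enzymes without that threshold (Hk2 and Ogdh higher, Mdh2 and Ldhb lower), beside 16.6% of the genes it tested.

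Both calls changed when single animals were left out. Mdh2 was called in 15 of 25 fits that left out 1 sham or RYGB animal, with log2 fold changes from -0.29 to -0.20 and adjusted p from 0.00886 to 0.108. Hk2 was called in 11 of the 25, with log2 fold changes from 0.29 to 0.39 and adjusted p from 0.0155 to 0.0913. Neither changed sign. Over all alternatives the adjusted p ran from 0.0071 to 1 for Mdh2 and from 0.0155 to 1 for Hk2. The count of called enzymes was 0 without RYGB replicate 1, 2, 3, 9, 13 or 14 and without sham replicate 2, 4 or 5. With RYGB replicate 5 or 12, or sham replicate 3 or 11, left out it was 1. Leaving out RYGB replicate 6 gave 8, RYGB replicate 11 gave 10 and sham replicate 1 gave 6. The share of all genes called moved too, to 17.04%, 22.2% and 17.5% in these 3 fits, and it was 6.84% to 13.04% in the fits with 0 or 1 enzyme. RYGB replicate 6 is the library with 3596 CPM of choroid plexus and 7105 CPM of neuron markers, and sham replicate 1 the one with 755 CPM of habenula and thalamus markers. Sham replicate 2, without which Mdh2 had its adjusted p of 0.108 in edgeR, held 5807 CPM of neuron markers. It also held 682 CPM of choroid plexus and 260 CPM of hypothalamus markers. RYGB replicate 11 held 45988 CPM of oligodendrocyte markers, and what part these tissue differences had was not tested.

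The next 4 members by p missed the threshold. Ldhb ran from 665 to 1068 CPM in sham animals (median 930) and from 445 to 1025 in RYGB animals (median 629). In the other groups Ldhb ran from 446 to 1064 CPM in BWM, 577 to 963 in lean, 571 to 1047 in saline and 544 to 971 in PYY3-36 + liraglutide animals. The 4 PYY3-36 animals were at 639, 690, 766 and 798 CPM, and the 5 liraglutide animals at 669, 724, 899, 904 and 1047. The RYGB animals mostly lay low, with 10 of 11 in batch A and 3 of 3 in batch B under the sham median of their batch, but 1 near the top of the sham range. The log2 fold change of Ldhb for RYGB against sham was -0.31 (SE 0.113, adjusted p 0.0554).

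Ogdh ran from 123 to 175 CPM in sham animals (median 140) and from 107 to 216 in RYGB animals (median 164). In the other groups Ogdh ran from 98.8 to 207 CPM in BWM, 113 to 189 in lean, 130 to 179 in saline and 131 to 214 in PYY3-36 + liraglutide animals. The 4 PYY3-36 animals were at 168, 175, 183 and 201 CPM, and the 5 liraglutide animals at 161, 180, 184, 190 and 194. RYGB animals spread wider than sham animals on both sides. Against the sham median of their own batch, 7 of 11 RYGB animals were above in batch A and 3 of 3 in batch B. The log2 fold change of Ogdh was 0.25 (SE 0.0949, adjusted p 0.0634). It was 0.09 within batch A (11 against 5 animals, adjusted p 0.676) and 0.60 within batch B (3 against 6, adjusted p 0.0166). Over all alternatives tried the adjusted p of Ogdh ran from 0.0147 to 1.

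Fh ran from 95.7 to 136 CPM in sham animals (median 116) and from 65.2 to 121 in RYGB animals (median 83.7). In the other groups Fh ran from 69.2 to 118 CPM in BWM, 63.9 to 107 in lean, 72.5 to 129 in saline and 76.1 to 131 in PYY3-36 + liraglutide animals. The 4 PYY3-36 animals were at 68.7, 95.4, 101 and 102 CPM, and the 5 liraglutide animals at 91.6, 105, 109, 118 and 130. Within batch A 9 of 11 RYGB animals lay below every sham animal of the batch, and within batch B 2 of 3. The log2 fold change of Fh was -0.24 (SE 0.0916, adjusted p 0.0657). Suclg1 ran from 149 to 254 CPM in sham animals (median 235) and from 136 to 250 in RYGB animals (median 158). In the other groups Suclg1 ran from 128 to 243 CPM in BWM, 131 to 226 in lean, 148 to 238 in saline and 135 to 229 in PYY3-36 + liraglutide animals. The 4 PYY3-36 animals were at 153, 183, 192 and 194 CPM, and the 5 liraglutide animals at 180, 186, 193, 238 and 238. The RYGB and sham ranges nearly coincided, although 9 of 11 RYGB animals in batch A and 3 of 3 in batch B were below the sham median of their batch. The log2 fold change of Suclg1 was -0.25 (SE 0.0958, adjusted p 0.0738).

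**Figure D2:**
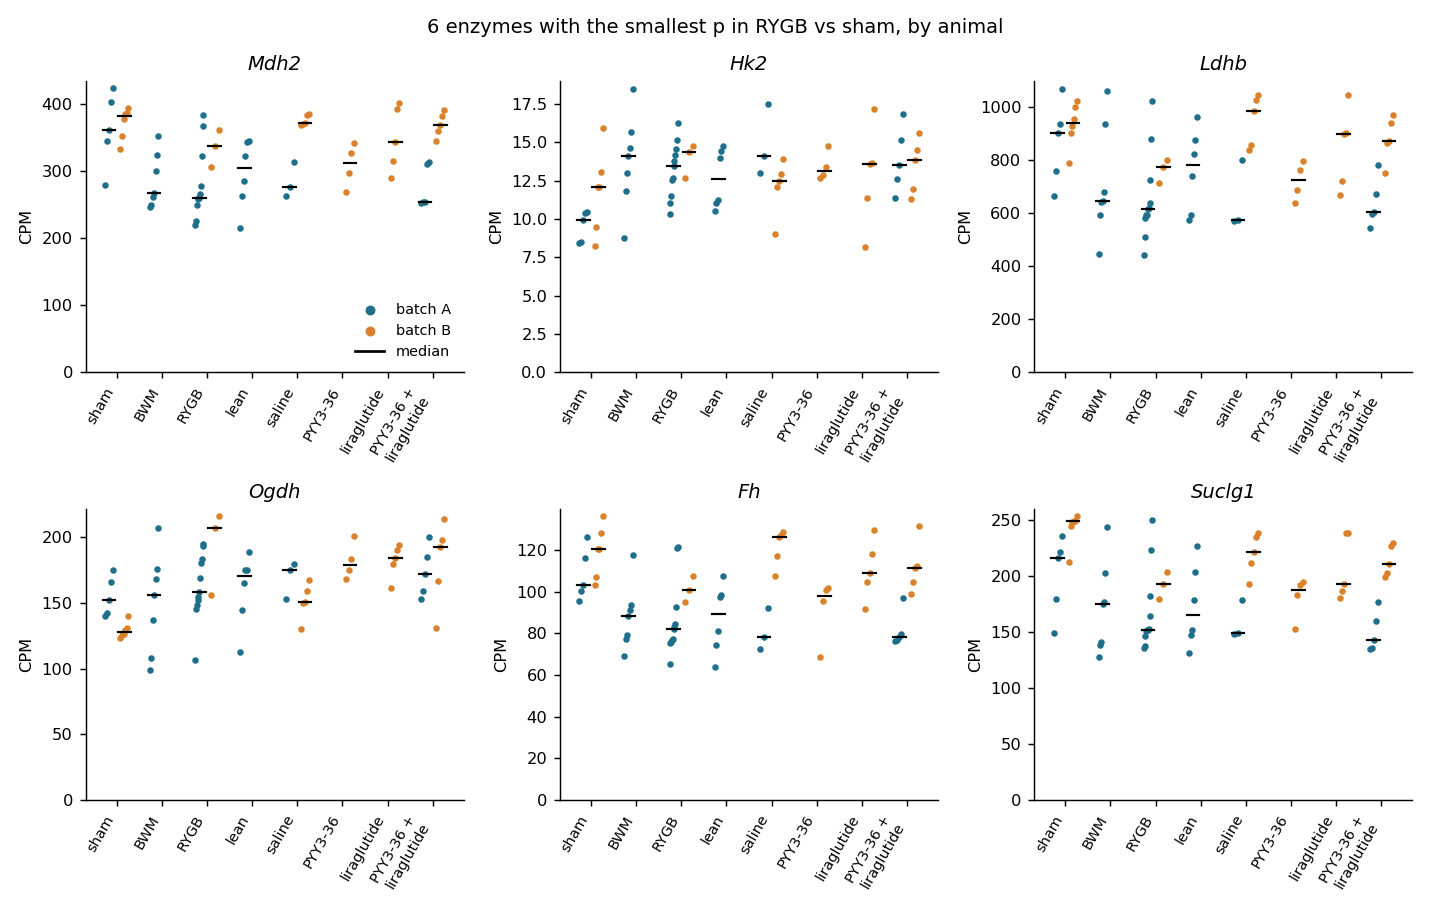
CPM of the 6 enzymes with the smallest p for RYGB against sham, 1 point per animal, by group and coloured by batch, with bars at the median of each group and batch. Sham animals of batch A stand above most other animals of that batch for Mdh2 and below them for Hk2.

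The rest of the 10 with the smallest p were Mdh1 (-0.29, SE 0.115, adjusted p 0.0802), Cs (0.28, SE 0.112, adjusted p 0.082), Gapdh (-0.22, SE 0.0907, adjusted p 0.0839) and Idh3b (-0.21, SE 0.0916, adjusted p 0.114). Against the sham median of their batch, Mdh1 and Idh3b were below in 10 of 11 RYGB animals of batch A and 3 of 3 of batch B. Cs was above in 8 of 11 and 3 of 3, and Gapdh was below in 9 of 11 and 1 of 3. The other regulated steps had log2 fold changes of 0.09 for Hk1, 0.01 for Pfkm and Pkm, -0.04 for Pdha1 and -0.10 for Idh3a, with adjusted p from 0.469 to 0.947. By role, the median log2 fold change was 0.01 over 9 preparatory enzymes of glycolysis, -0.16 over 6 later ones, -0.05 over 4 subunits of pyruvate dehydrogenase and -0.11 over 12 cycle genes.

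The comparison was also made inside each period. Within batch A edgeR called 0 enzymes and 0% of 20118 genes, with Mdh2 at -0.34 (adjusted p 0.174) and Hk2 at 0.50 (adjusted p 0.0686). Within batch B it called 1 (Ogdh) and 7.16% of 19279 genes, with Mdh2 at -0.13 (adjusted p 0.416) and Hk2 at 0.26 (adjusted p 0.448). The median over the enzymes was -0.14 within batch A and -0.02 within batch B. A test of the difference between batches called 0 of 34 enzymes in edgeR and 0% of 22207 genes. At an unadjusted p under 0.05 it held 5 of 34 enzymes, where 10.4% of all genes did. All 5 had the larger value in batch B: Pfkl (0.70, SE 0.215, adjusted p 0.174), Gpi (0.45), Hk1 (0.53), Ogdh (0.52) and Pgk1 (0.42). DESeq2 was not run for that test.

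Saline animals gave a second control. Against them, RYGB gave Mdh2 a log2 fold change of -0.11 (SE 0.0931) and Hk2 one of 0.04. EdgeR called 0 of 34 enzymes there, against 0.00457% of all genes, with 0 at an unadjusted p under 0.05, where 2.08% of all genes were; DESeq2 was not run for it. Sham animals themselves were set against saline animals as a comparison of the controls. Hk2 had a log2 difference of -0.29 (SE 0.12, adjusted p 0.322), with 5 of 5 sham animals of batch A and 4 of 6 of batch B under the saline median of their batch. Cs was at -0.27 (SE 0.125, adjusted p 0.358) and Suclg1 at 0.22 (SE 0.108, adjusted p 0.379), with 3 of 5 and 5 of 6 sham animals under the median for Cs and 4 of 5 and 5 of 6 above it for Suclg1. Of 34 enzymes, edgeR and DESeq2 called 0 for sham against saline, and 3 had an unadjusted p under 0.05 in edgeR, where 12.9% of all genes did. Of all genes edgeR called 0.0137% and DESeq2 0.0898%. Without sham replicate 1 there were still 0 enzymes, but 16 of all genes were called higher and 175 lower. The median was 0.06 over the enzymes and 0.01 over all genes, and it was 0.18 within batch A and -0.08 within batch B. The controls differed in tissue markers too. In batch A 4 of 5 sham libraries lay above every saline library in the sum of neuron markers and in that of ribosomal proteins. There 4 of 5 lay below every one in microglia and in blood markers, and 3 of 5 in meninges markers. In batch B 5 of 6 lay above every one in ribosomal proteins and 4 of 6 below every one in habenula and thalamus markers. In neuron markers the direction turned, with 0 of 6 above and 3 of 6 below every saline library of batch B. Without saline replicate 7 edgeR called 0 enzymes and 2 of all genes, with a median of 0.07 over the enzymes.

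BWM against sham asked what food restriction does, with the same sham animals. BWM animals were all of batch A. Most enzymes had lower values and Hk2 a higher one, with 28 of 34 log2 fold changes under 0 and a median of -0.14, against 0.00 over all genes. Within batch A the median was -0.22 (0.01 over all genes), and with only the compared groups fitted it was -0.23 (0.00). EdgeR and DESeq2 called 0 enzymes. At an unadjusted p under 0.05 in edgeR 1 was higher and 5 lower, where 8.74% of all genes were higher and 3.58% lower. Of all genes edgeR called 0.32% and DESeq2 0.984%. Markers of other tissue moved with this comparison. Of 7 BWM libraries, 6 lay above every sham library of batch A in the sum of meninges markers (30.9 to 1099 CPM against 22.0 to 53.2), and 5 did in blood markers (6.13 to 72.9 CPM against 0.8 to 9.2). In neuron markers 4 of 7 lay below every sham library of that batch (2231 to 3636 CPM against 3302 to 5807). EdgeR called 4 of 6 pituitary markers and 1 of 5 choroid plexus markers higher and none of the other lists. In the sum of each of these lists only 2 of 7 BWM libraries lay above every sham library of batch A. Pituitary sums ran from 1.14 to 76634 CPM in BWM against 2.74 to 467 in sham. The highest was BWM replicate 5, without which edgeR called 5 of all genes higher and 0 lower. The part of these tissues in the enzyme values was not tested.

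Hk2 came first with a log2 fold change of 0.37 (SE 0.134, adjusted p 0.206), above the median of the 5 sham animals of batch A in 6 of 7 BWM animals. Gpi was at -0.22 (SE 0.0905, adjusted p 0.284), Gapdh at -0.27 (SE 0.113, adjusted p 0.302) and Tpi1 at -0.27 (SE 0.121, adjusted p 0.348). All 7 BWM animals lay below every sham animal of batch A for Tpi1, and 6 did so for Gapdh. Mdh2 was at -0.22 (SE 0.103, adjusted p 0.353) and Pgk1 at -0.23 (SE 0.106, adjusted p 0.357). Hk1 was at -0.21, Aldoa at -0.22, Eno2 at -0.21 and Fh at -0.20, with adjusted p from 0.418 to 0.484. Below the batch A sham median were 7 of 7 BWM animals for Mdh2 and Pgk1 and 6 of 7 for Aldoa.

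Without BWM replicate 5, the library rich in pituitary markers, Hk2 was at 0.37 (SE 0.141) and 0 enzymes were called. The median over the enzymes was then -0.10, 2 had an unadjusted p under 0.05, and edgeR called 5 of all genes in place of 70. Without BWM replicate 2, Hk2 was at 0.46 (SE 0.133, adjusted p 0.069), and 10 enzymes had an unadjusted p under 0.05, with 172 of all genes called higher and 8 lower. The adjusted p of Hk2 ran from 0.0536 to 0.935 over the alternatives. Without BWM replicate 7, Hk2 was at 0.29 (SE 0.137, adjusted p 0.638), the median over the enzymes was -0.12, 1 had an unadjusted p under 0.05, and 43 of all genes were called. The counts of all genes in these fits are at an adjusted p under 0.05. Their share at an unadjusted p under 0.05 is not given, so the counts of enzymes at that level have no background here. No omission of 1 BWM or sham animal gave a called enzyme. Against saline, edgeR called 0 enzymes in BWM and 0.0412% of all genes, with 1 at an unadjusted p under 0.05 (Hk1, log2 -0.30), where 6.47% of all genes were; DESeq2 was not run for it.

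RYGB against BWM set the operation against food restriction. The enzymes differed little, with 22 of 34 log2 fold changes above 0 and a median of 0.05, against -0.03 over all genes. EdgeR and DESeq2 called 0 of 34, with 1 at an unadjusted p under 0.05 in edgeR, where 12.6% of all genes were. Of all genes edgeR called 0.343% and DESeq2 0.207%. The enzyme was Hk1, which had a log2 fold change of 0.30 (SE 0.0979, adjusted p 0.222) and was above the BWM median in 10 of 11 RYGB animals of batch A. Without BWM replicate 5 Hk1 was at 0.29 (SE 0.104), the median over the enzymes was 0.02, and 2 of all genes were called in place of 75. Without BWM replicate 7 Hk1 was at 0.29 (SE 0.104) with 83 of all genes called, and without RYGB replicate 3 it was 135 of all genes, with 0 enzymes in both. Without RYGB replicate 11 there were still 0 enzymes, with 28 of all genes called higher and 227 lower. Ogdh (0.18), Pfkl (0.19), Gpi (0.10), Pfkp (0.14), Pkm (0.12), Dlat (0.17), Ldhb (-0.14), Cs (0.14) and Ldha (0.10) followed, with adjusted p from 0.477 to 0.702.

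Lean animals, all of batch A, were set against the same sham animals. EdgeR and DESeq2 called 0 of 34 enzymes, with 1 at an unadjusted p under 0.05 in edgeR, where 12.2% of all genes were. EdgeR called 0% of all genes and DESeq2 0.162%. The enzyme was Cs, with a log2 fold change of 0.32 (SE 0.143, adjusted p 0.361) and 5 of 6 lean animals above the batch A sham median. Without sham replicate 1 there were still 0 enzymes, but 248 of all genes were called higher and 33 lower. Aldoc was at -0.23, Hk2 at 0.25, Fh at -0.21, Dlat at 0.29, Mdh2 at -0.18, Gapdh at -0.19, Eno1 at -0.15, Idh2 at -0.15 and Pgk1 at -0.16. Their adjusted p ran from 0.418 to 0.565. The median over the enzymes was -0.07, against -0.02 over all genes. It was -0.16 within batch A (-0.01 over all genes) and -0.18 with only the compared groups fitted (-0.03). Of 6 lean libraries, 5 lay above every sham library of batch A in the sum of meninges markers. In neuron and in oligodendrocyte markers 4 lay below every one, as did 3 in ribosomal proteins, and 3 lay above every one in microglia and blood markers. What part these tissues had was not tested.

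The hormone groups were compared with the same saline animals to ask what each agent does alone and together. PYY3-36 animals, all of batch B, had 28 of 34 log2 fold changes under 0 and a median of -0.15, against -0.01 over all genes. EdgeR and DESeq2 called 0 of 34 enzymes, with 2 at an unadjusted p under 0.05 in edgeR, both lower, where 3.87% of all genes were higher and 3.67% lower. Of all genes edgeR called 0% and DESeq2 0.0477%. Fh was at -0.31 (SE 0.139, adjusted p 0.652), Dlst at -0.23 (SE 0.107, adjusted p 0.652) and Mdh2 at -0.23 (SE 0.126, adjusted p 0.652). For Fh and Dlst 4 of 4 PYY3-36 animals were below the saline median of batch B. Without PYY3-36 replicate 2, the library rich in oligodendrocyte markers, Fh was at -0.20 (SE 0.148), Dlst at -0.20 (SE 0.118) and Mdh2 at -0.18 (SE 0.138). The median over the enzymes was then -0.10, with 0 at an unadjusted p under 0.05. Without saline replicate 7 the median was -0.13 and 1 enzyme had an unadjusted p under 0.05 (Fh, -0.29, SE 0.143). The share of all genes at an unadjusted p under 0.05 is not given for these fits. All 4 PYY3-36 libraries lay below every saline library of batch B in the sum of neuron markers (3395 to 3807 CPM against 4012 to 6655). In pituitary markers 3 of 4 lay above every one (2.23 to 426 CPM against 1.49 to 4.39). In endothelium markers 3 of 4 lay below every one, and the part of these tissues was not tested.

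Liraglutide animals, also of batch B alone, differed by less than 0.22 in any enzyme, with a median of -0.03 against -0.02 over all genes. With same-numbered animals blocked the median over the enzymes was -0.13, with 0 enzymes called. EdgeR and DESeq2 called 0 of 34, with 0 at an unadjusted p under 0.05 in edgeR, where 2.08% of all genes were. Of all genes edgeR called 0% and DESeq2 0.0359%. Ogdh was at 0.21 (SE 0.134), above the saline median in 5 of 5 animals, Aldoc at 0.18 (SE 0.126) and Suclg2 at 0.13 (SE 0.112). Under the combination the range was -0.11 to 0.18 with a median of -0.02, equal to that over all genes. EdgeR and DESeq2 called 0 of 34 there, with 0 at an unadjusted p under 0.05 in edgeR, where 2.53% of all genes were. Of all genes edgeR called 0.00457% and DESeq2 0.0539%. Ogdh was at 0.16 (SE 0.109), Idh2 at -0.11 (SE 0.0859) and Dlat at 0.18 (SE 0.149). Without saline replicate 7 edgeR called 0 enzymes in all 3 hormone comparisons, with medians of 0.00 for liraglutide and for the combination. The 95% intervals of single enzymes reached from -0.67 to 0.50 for PYY3-36, -0.41 to 0.48 for liraglutide and -0.36 to 0.48 for the combination, so differences of that size were not excluded.

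**Figure D3:**
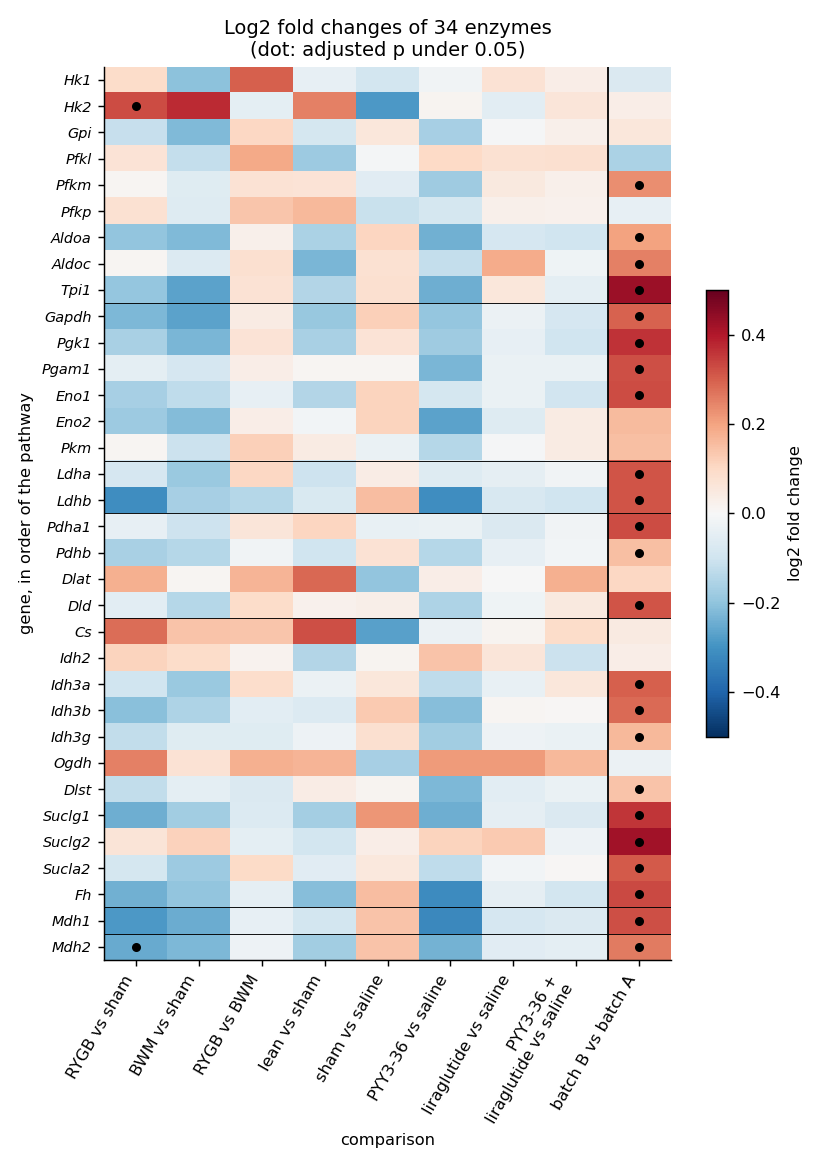
Log2 fold changes of the 34 enzymes in pathway order for 8 comparisons between groups and for batch B against batch A, from blue (lower) to red (higher), with a dot where the adjusted p is under 0.05. Dots stand at Mdh2 and Hk2 for RYGB against sham and at 23 enzymes for the batches.

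By the count of called enzymes, the 2 experimental periods differed more than any groups did. Of 34 enzymes 23 were higher in batch B and 0 lower in edgeR, against backgrounds of 19.3% higher and 21.4% lower. At an unadjusted p under 0.05, 25 were higher and 0 lower, where 22.6% of all genes were higher and 25.1% lower; DESeq2 was not run for it. The median log2 difference was 0.26 over the enzymes and -0.01 over all genes, and scaling by library totals alone gave 0.18 and -0.10. That scaling called 12.7% of all genes higher and 27.0% lower, so the split over all genes depends on scaling. Suclg2 (0.42, SE 0.0623, adjusted p 1.73e-07), Tpi1 (0.43, SE 0.0771, adjusted p 9.77e-06), Eno1 (0.33, SE 0.059, adjusted p 9.62e-06) and Pgk1 (0.36, SE 0.0674, adjusted p 1.53e-05) led. By role, 4 of 9 preparatory and 4 of 6 later glycolytic genes, 2 of 2 of lactate dehydrogenase, 3 of 4 of pyruvate dehydrogenase and 9 of 12 of the cycle were higher, as was Mdh1. Among those not called were Hk1 (-0.07), Pfkl (-0.16), Cs (0.05), Ogdh (-0.03) and Hk2 (0.03). Of 14 cytosolic ribosomal protein genes 13 were higher in batch B as well. Median sums of oligodendrocyte markers were higher in batch B in sham (32401 against 16211 CPM) and RYGB (18981 against 13757) animals. They were so in saline (26067 against 17637) and PYY3-36 + liraglutide (18393 against 13443) animals. Blood markers were higher in each of these groups (in sham 34.6 against 3.02 CPM). Neuron markers were so except in sham (3985 against 4219 CPM), and meninges markers went both ways. What part these tissues had was not tested.

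Fold changes moved with the length of the gene. Across the 34 enzymes, the Spearman correlation between exon length and log2 fold change was 0.594 for RYGB against sham, where it was 0.417 across 10740 genes with a mean level no lower than that of the lowest enzyme. Mdh2 with 1291 bases and Hk2 with 6312 stood near the ends of that range of length. Genes are not independent replicates, so these values are a description. The same correlation across the enzymes was 0.377 for BWM against sham, 0.386 for RYGB against BWM, 0.572 for lean against sham and -0.683 for sham against saline. It was 0.4927 for PYY3-36, 0.147 for liraglutide and 0.606 for the combination against saline, and -0.493 for batch B against A. Across the 10740 genes these were 0.192 for BWM against sham, 0.347 for RYGB against BWM, 0.502 for lean against sham and -0.416 for sham against saline. They were 0.301 for PYY3-36, 0.118 for liraglutide, 0.483 for the combination and -0.43 for the batches. Over those of these genes shorter than 1500 bases the median was -0.24 for RYGB against sham, and over 5 enzymes of that length it was -0.25. In the class of the longest genes, which held Dlst, Ogdh and Hk2, it was 0.06 over the 4089 genes of that length and 0.25 over these 3. The labels give different fragment sizes for the libraries of the 2 batches, and the part of length in any result was not tested.

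**Figure D4:**
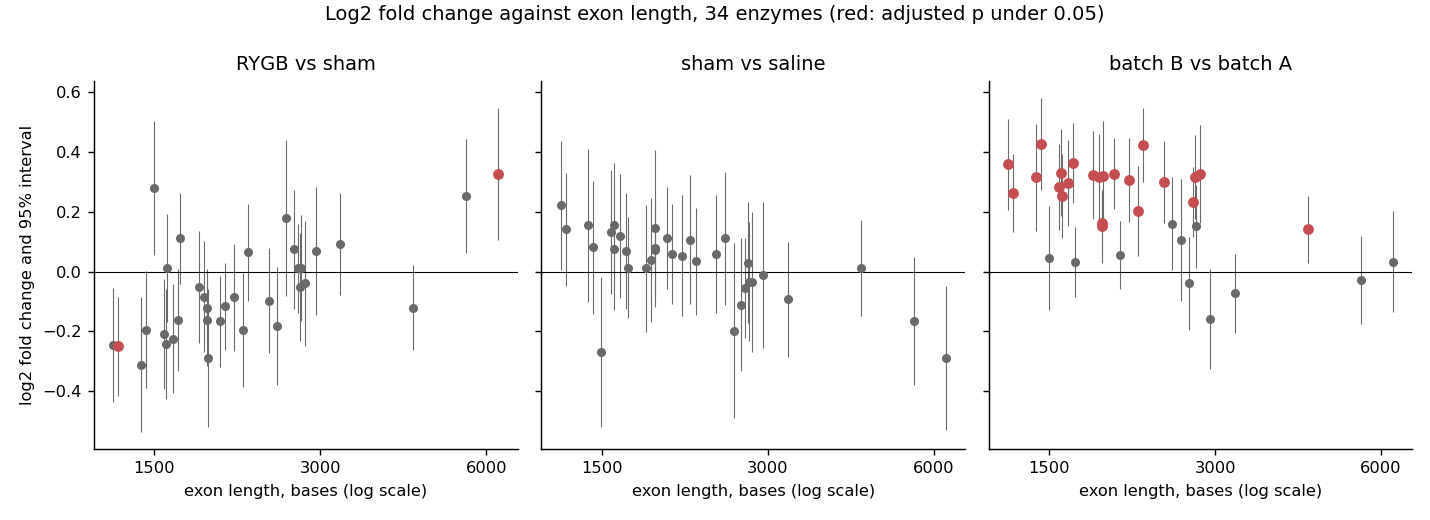
Log2 fold change with its 95% interval against exon length in bases (log axis) for the 34 enzymes in 3 comparisons, with genes at an adjusted p under 0.05 in red. Shorter genes lie lower for RYGB against sham (correlation 0.594) and higher for sham against saline (correlation -0.683) and for batch B against A (correlation -0.493).

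Ratios of isozymes within a library do not depend on scaling. For 8 pairs of enzymes in 8 comparisons, 0 of 64 exact permutation tests passed an adjusted p under 0.05, and 8 had an unadjusted p under 0.05. EdgeR and DESeq2 do not enter this test. The smallest p these tests can reach was 0.00126 for BWM, 0.00216 for lean, 0.00794 for PYY3-36 and 0.00397 for liraglutide, so with 64 tests a single ratio in those groups could not have passed. The largest difference was in Hk2 to Hk1. Its log2 ratio was -5.36 ± 0.257 in 5 sham animals of batch A and -4.52 ± 0.368 in 7 BWM animals, a difference of 0.85 (SE 0.23, exact p 0.00253, adjusted p 0.162). For lean against sham the same ratio differed by 0.58 (SE 0.229, exact p 0.0173, adjusted p 0.298). For RYGB against sham it differed by 0.30 (SE 0.147, exact p 0.0789, adjusted p 0.44), by 0.56 within batch A and by -0.16 within batch B. The ratio of Sucla2 to Suclg2 differed by -0.48 for BWM against sham (SE 0.154, exact p 0.0177, adjusted p 0.298). Aldoa to Aldoc differed by -0.33 for liraglutide against saline (SE 0.106, exact p 0.0238, adjusted p 0.305) and by -0.24 for RYGB against sham (SE 0.119, exact p 0.0456, adjusted p 0.381). Pfkl to Pfkm differed by -0.33 for lean against sham (SE 0.171, exact p 0.0433, adjusted p 0.381) and by 0.33 for PYY3-36 against saline (SE 0.141, exact p 0.0476, adjusted p 0.381). Eno1 to Eno2 differed by -0.16 for the combination against saline (SE 0.0607, exact p 0.0186, adjusted p 0.298).

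**Figure D5:**
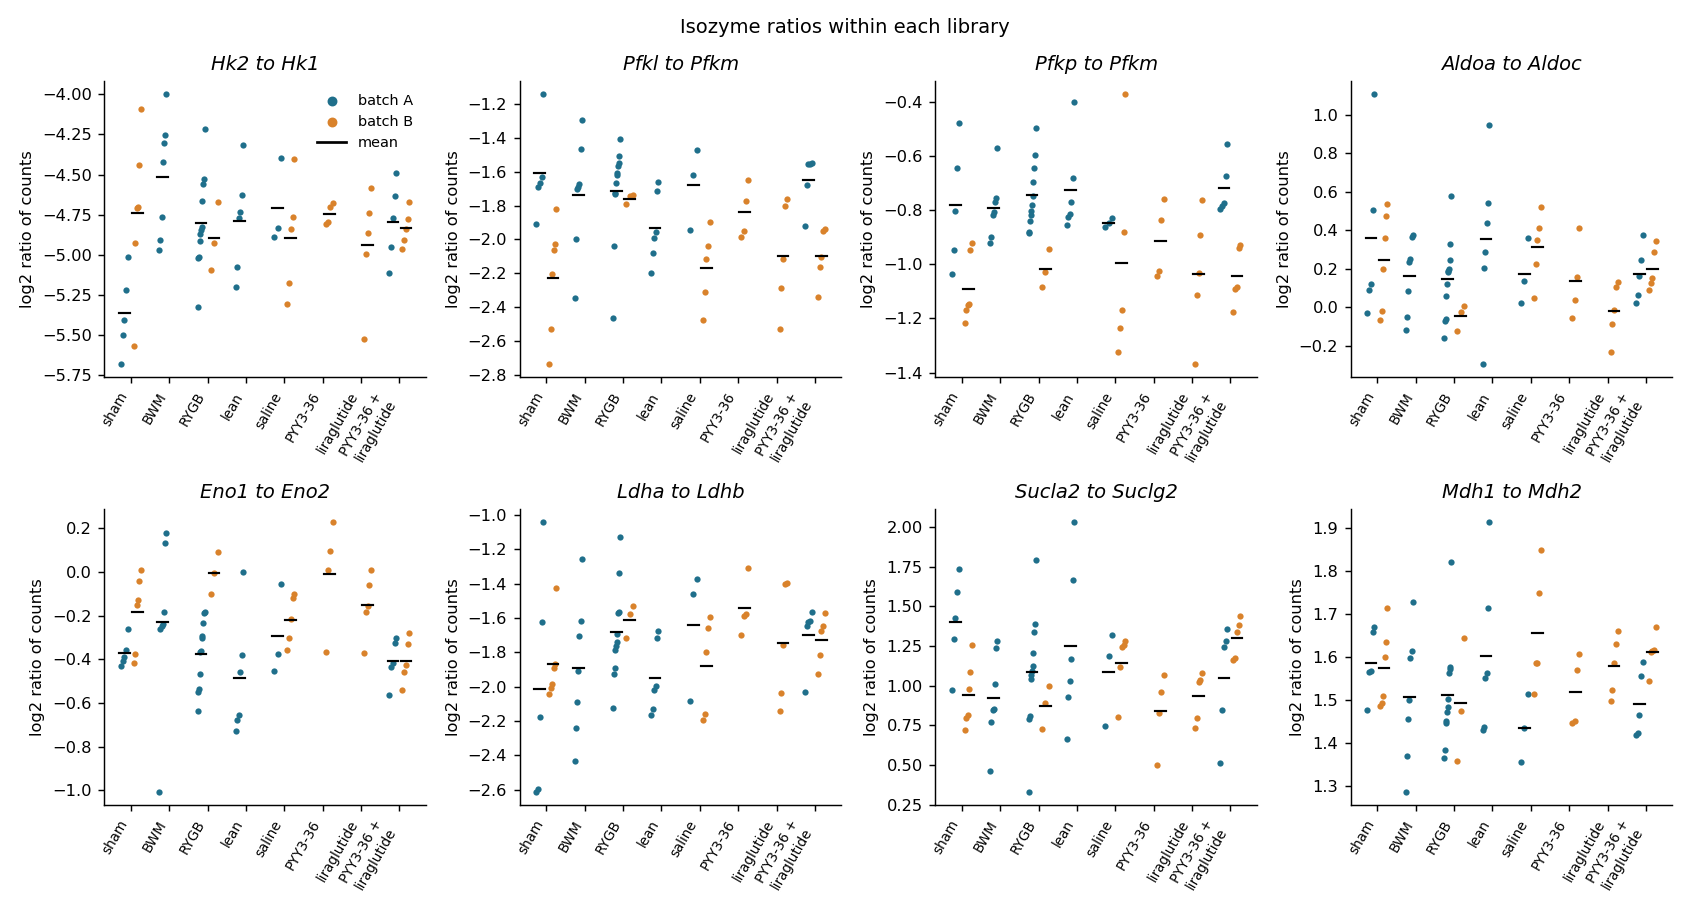
Log2 ratio of counts for 8 isozyme pairs in each library, by group and coloured by batch, with bars at the mean of each group and batch. For Hk2 to Hk1 the sham animals of batch A have the lowest mean (-5.36) and BWM animals the highest (-4.52).

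Other genes of the pathway were read from a written list of 48, of which 47 were in the table (Hkdc1 was not) and 44 were tested. For RYGB against sham 4 of 44 were higher and 3 lower, beside 6.52% and 6.53% of all genes, so the counts stand near the background. Omitting RYGB replicate 6 left 4 of the list higher and 7 lower, where 17.04% of all genes were called in either direction. The fit lacking RYGB replicate 11 had the same 4 and 7, where 22.2% of all genes were called. With sham replicate 1 omitted, 4 were higher and 5 lower, beside 17.5% of all genes. All 3 shares exceed the 13% of the full fit, so the list counts rose together with the background. Animals are counted against the sham median of their own batch, first in batch A and then in batch B. Pdk4, a kinase that switches off pyruvate dehydrogenase, rose by 1.06 (SE 0.256, adjusted p 0.0057) and was above in 11 of 11 and 3 of 3 RYGB animals. Pdp2, the opposing phosphatase, rose by 0.49 (SE 0.14, adjusted p 0.0167), above in 10 of 11 and 3 of 3. Pfkfb2, which makes the activator of phosphofructokinase, rose by 0.28 (SE 0.0849, adjusted p 0.0232), above in 10 of 11 and 3 of 3. Sdha, a subunit of succinate dehydrogenase, rose by 0.21 (SE 0.0684, adjusted p 0.0334), above in 11 of 11 and 3 of 3. The subunits Sdhb, Sdhc and Sdhd, also on the list, were not called. The paper reports significantly lower normalized counts of Sdhb, Sdhc and Sdhd in RYGB than in sham animals. Bpgm, which makes bisphosphoglycerate, was at -0.26 (SE 0.0798, adjusted p 0.024), below in 10 of 11 and 3 of 3. Mpc1, of the mitochondrial pyruvate carrier, was at -0.44 (SE 0.134, adjusted p 0.0255), below in 9 of 11 and 3 of 3. The mitochondrial malic enzyme Me3 was at -0.67 (SE 0.219, adjusted p 0.0349), below in 9 of 11 and 3 of 3. Within batch A edgeR called 0% of 20118 genes for this comparison, and with the replicate block 1 of 22826. With saline controls it called 1 of 21871, so at most 1 of the calls named above could stand in each of these fits. For RYGB against BWM only the muscle enolase Eno3 was called, at -1.02 (SE 0.206, adjusted p 0.00563). That call rests on BWM replicate 5, without which Eno3 was at -0.46 (SE 0.166, adjusted p 0.459) and no gene of the list was called. In the other 6 comparisons between groups edgeR called 0 of 44.

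Cell type markers were read in the same test of RYGB against sham, where 6.52% of all genes were called higher and 6.53% lower. EdgeR called 0 of 7 neuron, 0 of 6 astrocyte, 0 of 6 oligodendrocyte, 1 of 5 microglia and 0 of 3 endothelium markers (Slco1a4 was not in the table). It called 0 of 6 pituitary, 1 of 5 choroid plexus, 0 of 5 meninges, 0 of 4 habenula and thalamus, 0 of 3 blood and 0 of 10 hypothalamus markers, and 2 of 14 ribosomal protein genes, both lower. Median log2 fold changes were -0.17 for neurons, 0.25 for astrocytes, -0.31 for oligodendrocytes, -0.08 for microglia and 0.09 for endothelium. They were -0.16 for pituitary, 1.35 for choroid plexus, 1.2 for meninges, -0.74 for habenula and thalamus, 0.37 for blood, 0.05 for hypothalamus and -0.26 for ribosomal proteins. Median sums by batch did not all share these signs. For habenula and thalamus they were higher in RYGB (57.5 against 51.8 CPM in batch A, 118 against 64.1 in batch B). Pituitary sums were too (15.4 against 6.36, 101 against 3.84). Choroid plexus sums were lower in batch A (44.6 against 67.3) and higher in batch B (53.7 against 40.0). Sham replicate 1 held 755 CPM of habenula and thalamus and RYGB replicate 6 3596 CPM of choroid plexus markers. Summed levels over the 65 libraries ran from 1912 to 7105 CPM for neurons, 1510 to 4560 for astrocytes (led by Gfap), 7470 to 57382 for oligodendrocytes and 112 to 294 for microglia (led by Csf1r). They ran from 123 to 357 CPM for endothelium (led by Cldn5), 0.616 to 76634 for pituitary, 6.43 to 3596 for choroid plexus and 22.0 to 1123 for meninges (led by Col1a1). They ran from 29.2 to 755 CPM for habenula and thalamus, 0.8 to 213 for blood (led by Hbb) and 3227 to 7818 for ribosomal proteins (led by Rpl4). No marker was at 0 in all libraries. The markers most often at 0 were Prl (42 libraries), Pou1f1 (35), Gpr151 (26), Gh1 (24), Tshb (22) and Cga (13). Within batch A, 9 of 11 RYGB libraries lay above every sham library in the sum of meninges markers and 7 of 11 below every one in that of neurons. There 6 of 11 lay above every one in astrocyte and in blood markers and 6 of 11 below every one in oligodendrocyte markers. Within batch B 0 of 3 RYGB libraries lay above every sham library in meninges markers and 2 of 3 below every one in neuron markers. There 3 of 3 lay above every one in pituitary markers (16.9 to 497 CPM against 3.39 to 11.4), 2 of 3 in habenula and thalamus markers, and 3 of 3 below every one in ribosomal proteins (4277 to 4787 CPM against 5281 to 7043). What part of the enzyme values goes with these tissues was not tested.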

How the data were processed

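Per the authors' description, the deposited values are estimated counts per gene, made with bcl2fastq 2.20.0.422, cutadapt (1.16 in the labels, later versions too in the paper), STAR 2.7.2b and featureCounts 1.6.4 on Rnor_6.0. Of values above 0, 30.26% were not whole, and all were rounded, which changed library totals by at most 0.00104%. Members and lists were chosen with earlier results of these data known.

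Genes were kept by filterByExpr (minimum count 10, total 15). EdgeR 4.0.16 (R 4.3.3, limma 3.58.1) fitted group and batch to all 65 libraries by robust quasi-likelihood with TMM factors, with Benjamini-Hochberg adjustment over 21871 genes. CPM were TMM-scaled on tested genes. SE came from the log2 fold change and F. Leave-one-out fits kept the gene set and dispersion trend of the fit to all animals. Alternatives were DESeq2 1.42.0 (Wald test), its size factors, library totals, no filter, no batch term, the compared groups only, each batch, a fold threshold, saline controls and a replicate block. Summed near-identical copies, the liraglutide block and 3 fits of the batch comparison were chosen after seeing the data. Replicates of liraglutide and saline with the same number correlated at 0.244 to 0.384 in 5 pairs.

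Isozyme ratios (0.5 added to both counts) were compared by two-sided exact permutation within batch, with Benjamini-Hochberg adjustment over 64 tests. Scripts (Python 3.11.15, numpy 2.4.6, pandas 2.3.3, scipy 1.17.1, matplotlib 3.10.9) were tested on simulated data. Promoters came from RefSeq on GRCr8. Marker lists were neurons, astrocytes, oligodendrocytes, microglia, endothelium, pituitary, choroid plexus, meninges, habenula and thalamus, blood, hypothalamus and ribosomal proteins.

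Values in every group are given for all 34 members. Tests are named for called members, for the 10 smallest p in RYGB, BWM and lean against sham and in RYGB against BWM, for the 3 smallest in hormone comparisons and sham against saline, and for committing steps in RYGB against sham. Values by animal are given for the 6 smallest p in RYGB against sham. Other pathway genes are named where called between groups.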

Additional observations from a re-analysis of the deposited data

How the results depend on the processing

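Of the counts of called enzymes, that for RYGB against sham moved most, from 2 (13% of all genes called, both directions). It was 1 with no filter on low counts (6.64% of all genes), 13 with no batch term (2 higher and 11 lower; 25.5%), 6 with only the compared groups fitted (12.9%), 0 within batch A (0%), 1 within batch B (7.16%), 4 in DESeq2 (16.6%), 0 with the fold threshold, 0 with saline controls and 0 with the replicate block, which called only 1 of 22826 genes. Leaving out 1 animal gave 0 at the lowest (without RYGB replicate 1, among others, 10.5%) and 10 at the highest (without RYGB replicate 11, 22.2%). With no batch term BWM against sham had 6 in place of 0 (9.98% of all genes) and lean against sham 2 in place of 0 (10.7%). BWM and lean animals were all of batch A, while sham animals were of both batches, so a fit with no batch term adds the difference between batches to theirs. The cause of the other moves was not tested. DESeq2 size factors gave 3 for RYGB against sham (12.3% of all genes) and library totals 3, all higher (13%). The replicate block was fitted for RYGB and BWM against sham, RYGB against BWM, and liraglutide and the combination against saline. It called 0 enzymes in each, and the other comparisons had no such fit. For RYGB against BWM it called 0 of 22788 genes, so the call of Eno3 ended. It moved the median over the enzymes from -0.09 to -0.22 for RYGB against sham and from -0.14 to -0.21 for BWM against sham. For liraglutide against saline that median moved from -0.03 to -0.13. The correlations of same-numbered animals were of both signs for RYGB and sham (-0.261 to 0.278 in 11 pairs). Numbers 6 to 11 join RYGB animals of batch A with sham animals of batch B, and numbers 1 to 3 join liraglutide animals of batch B with saline animals of batch A. For RYGB against sham the replicate block gave Mdh2 -0.42 and Hk2 0.63. Over the other alternatives Mdh2 ran from -0.34 within batch A to -0.11 with saline controls, and Hk2 from 0.04 with saline controls to 0.50 within batch A.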
